A study of Mus musculus with 16 samples.

Results

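The late line difference is the difference in gene expression between the exp and ctl lines of immortalized mouse embryonic fibroblasts at days 12, 16 and 20 of doxycycline. The exp line has the genotype R26M2rtTA/+;TetOcre;Sdhcfl/fl, with both copies of Sdhc floxed, and the ctl line has R26M2rtTA/+;TetOcre;Sdhcfl/wt, with 1 floxed and 1 wild-type copy. Both lines carry the doxycycline-responsive transactivator at the Rosa26 locus and the Cre transgene it switches on, both received doxycycline at 1 µg/mL, and both grew in low-glucose DMEM with 10% FBS. The comparison used 6 of the 16 libraries, those of day 12, day 16 replicate 1 and day 20 of each line, paired by day. The pairs of days 0, 5 and 9 served as the early comparison. Day 16 was labelled a biological triplicate, and its replicates 2 and 3, which form a separate set in these data, were kept out of the fit and are given beside the calls. Of 24485 gene IDs, 23301 lie on autosomes, and the 12093 of these that averaged 1 FPKM or more across the 6 late libraries were tested. FPKM is a gene's read count scaled to its length and to the depth of the library. There is 1 line per genotype and 1 library per line and day, so line and genotype cannot be told apart, and the p-values measure only the spread between these libraries.

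SDHC is a membrane subunit of succinate dehydrogenase, the enzyme that oxidizes succinate in the citric acid cycle and passes the electrons to the respiratory chain as complex II. Cells without the enzyme accumulate succinate, which inhibits dioxygenases that use 2-oxoglutarate, among them prolyl hydroxylases, collagen hydroxylases and enzymes that remove methyl groups from DNA and histones. Fibroblast lines also differ by the body position they came from, which is recorded in their Hox genes and other patterning factors.

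The late libraries held 22522160 to 34903984 reads in genes. Some fibroblast markers were abundant in both lines, among them Col1a1 at 1055 to 1116 FPKM in exp and 905 to 993 in ctl. Vim stood at 1371 to 1745 and 1545 to 1595. Others were low: Thy1 had 0.768 to 5.35 FPKM in exp and 0.512 to 0.862 in ctl, and Lum 1.42 to 2.32 and 0.566 to 0.995. Fap was at most 0.115 in either line, and Dcn had 67.5 to 143 in exp but 2.66 to 3.72 in ctl. Pdgfra, Pdgfrb and S100a4 were lower in exp. No late exp library reached their lowest late ctl levels of 47.7, 48.1 and 1097 FPKM. Summed over 12 fibroblast markers, the level was 4848 to 4992 FPKM in exp and 4249 to 4289 in ctl. Of the 11 markers tested, 5 were called higher in exp and 3 lower, so the higher sum does not describe each marker. The leukocyte genes Ptprc, Adgre1 and Tyrobp and the muscle genes Myod1 and Myog were listed at 0 in all 6 late libraries. The separate day 16 set stood apart from replicate 1 in both lines. In exp, 649 and 641 of the tested genes (5.37% and 5.30%) lay at least 1 log2 unit from replicate 1 in replicates 2 and 3, and 23 (0.19%) differed that much between replicates 2 and 3. In ctl the corresponding counts were 196, 196 and 7.

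Sdhc itself (gene ID 66052, mm9 chr1:173057296-173080734, minus strand) was lower in exp at all 3 late days. It had 44.0, 36.9 and 42.5 FPKM in exp and 52.6, 50.5 and 54.7 in ctl at days 12, 16 and 20. The groups did not overlap: the late mean was 41.1 ± 3.77 FPKM for the exp line and 52.6 ± 2.09 for the ctl line (SD, n = 3 days). On the log2(FPKM + 1) scale, which understates changes of low genes, the late difference was -0.35 ± 0.06 (SE; limma adjusted p = 0.0158). At days 0, 5 and 9 Sdhc fell in both lines, with 87.8, 54.4 and 43.8 FPKM in exp and 90.5, 58.6 and 47.6 in ctl. The early pairs differed by -0.09 on average, and the late difference minus the early one was -0.26 ± 0.10 (limma adjusted p = 0.438). Day 16 replicates 2 and 3 had 32.8 and 26.5 FPKM in exp and 50.1 and 47.5 in ctl, a mean difference of -0.71. In the exact permutation test over the 3 late days p was 0.25, the smallest 3 pairs allow. Over all 6 days exp was lower in every pair, and the exact permutation test gave p = 0.03125, the smallest 6 pairs allow. Without the day 0 pair, the exact permutation test over 5 days gave p = 0.0625, the smallest 5 pairs allow. The Sdhc call was lost without the day 16 pair (limma adjusted p = 0.0618), without the day 20 pair (adjusted p = 0.126) and with replicates 2 and 3 in place of replicate 1 (adjusted p = 0.0829). A gene-level value does not show which exons were read, so it does not measure recombination. The other subunits were not called: the late difference was -0.11 for Sdha, the flavoprotein, -0.06 for Sdhb, the iron-sulfur subunit, and 0.07 for Sdhd, the other membrane anchor.

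Across the genome, 3752 of 12093 genes (31%) differed between the lines late at a limma adjusted p under 0.05. Of these, 1967 were higher in exp (16.3%) and 1785 lower (14.8%). Most differences were small: the median size of a called difference was 0.467, and 765 called genes reached 1 log2 unit, 503 higher and 262 lower. The count rests on the choice of day 16 libraries and on days 16 and 20. With day 16 replicates 2 and 3 in place of replicate 1 it was 786, without the day 16 pair 2362 and without the day 20 pair 1269.

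Of the 12 genes furthest apart toward exp, 5 belong to the list of mesothelial and epithelial genes, Upk3b, Lrrn4, Gpm6a, Upk1b and Krt14. Mesothelium is the lining of the body cavities. Upk3b, a uroplakin that marks mesothelial cells (mm9 chr5:136514366-136521173), had 127, 455 and 433 FPKM in exp and 0.192, 0.211 and 0.136 in ctl, a late difference of 7.96 ± 0.39. Lrrn4, a leucine-rich repeat membrane protein, had 47.6, 169 and 147 FPKM against 0.0307, 0.0247 and 0. Gpm6a, a membrane glycoprotein also known from neurons, had 37.5, 120 and 108 FPKM against 0, 0.0161 and 0. In each of these genes day 12 was the lowest of the late exp libraries, and no ctl library came near them. The list continued with the uroplakin Upk1b (5.89), the keratin Krt14 (5.70), the prostacyclin synthase Ptgis (5.37), the pantetheinase Vnn1 (5.07), the retinoic acid synthesizing enzyme Aldh1a2 (4.97) and the proteoglycan Dcn (4.72), where each value is the late difference in log2 units. Tnn, the matrix protein tenascin N (5.39), Vat1l (5.14) and Tmem108 (4.89) completed the 12 largest. All 12 were called, with limma adjusted p between 0.000234 and 0.00222.

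Of the 16 tested mesothelial and epithelial genes, 12 were higher (75%), against 16.3% of all genes, and 1 was lower, the tight-junction gene Cldn1. The mesothelial transcription factor Wt1 had 8.80, 28.2 and 24.9 FPKM in exp and at most 0.00927 in ctl. Krt18, a keratin of simple epithelia, had 7.74, 41.5 and 31.9 FPKM in exp and 0.127, 0.0614 and 0.0988 in ctl. Other members did not part the lines. Msln, the mesothelial surface protein mesothelin, overlapped between exp (44.5 to 131 FPKM) and ctl (94.6 to 104) and was not called. The epithelial cadherin gene Cdh1 lay between 0.800 and 1.54 FPKM in both lines, and Epcam was at most 0.259. Summed over 6 mesothelial markers the level was 270 to 986 FPKM in exp and 105 to 116 in ctl, and over 7 epithelial markers 32.6 to 157 and 1.52 to 1.74; the part of these cell type markers in other results was not tested. In bulk RNA a change in the number of cells of a type and a change in RNA per cell cannot be told apart.

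This gene group already separated the lines before day 12. Its median difference was 2.83, 3.09 and 2.10 at days 0, 5 and 9, then 2.94, 4.50 and 4.33 at days 12, 16 and 20, and 1.45 and 1.26 in day 16 replicates 2 and 3. Upk3b had 84.8, 103 and 50.3 FPKM in exp at days 0, 5 and 9, and 22.9 and 28.0 in the other day 16 replicates. The separate day 16 set thus lay below all 6 other exp libraries for this gene. With that set in place of replicate 1, 6 of the list's 16 members were called higher.

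Toward ctl the 12 largest differences included 6 transcription factors and were present already in the early pairs. Sim2, a transcription factor of the bHLH-PAS family, had 2.18, 1.47 and 1.97 FPKM in exp and 85.5, 86.3 and 83.9 in ctl, a late difference of -4.92 ± 0.09 beside an early mean of -4.97. Hoxc6, a homeobox gene of trunk and forelimb level, had at most 0.112 FPKM in exp late and 29.5, 29.9 and 31.6 in ctl, a late difference of -4.90 beside -4.79 early. Wnt10a, a secreted Wnt ligand, had 1.04, 0.991 and 0.923 against 55.2, 57.2 and 54.5 FPKM, a difference of -4.83 beside -4.13 early. The other 9 were Cthrc1, a secreted collagen triple helix repeat protein (-4.52), Serpinb9b (-4.06), Foxd1 (-4.00), Alx1 (-3.96), the anticoagulant receptor thrombomodulin Thbd (-3.75), Medag (-3.72), Hoxa5 (-3.66), Enpep (-3.60) and Hoxc8 (-3.59), given as late differences. The early mean of all 12 was at or below -3.35, and the mean over the other day 16 pairs ran from -1.34 (Medag) to -5.32 (Sim2).

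Hox genes differed in both directions and by cluster region. Of 31 tested, 13 were higher in exp and 14 lower, against 16.3% and 14.8% of all genes. The tested members of Hoxc4 to Hoxc9 and Hoxa2 to Hoxa7 were all lower, from -0.64 (Hoxa4) to -4.90 (Hoxc6). The tested members of Hoxa9 to Hoxa13 and Hoxd4 to Hoxd13 were all higher, from 0.85 (Hoxa9) to 3.11 (Hoxd8). Hoxb7, Hoxb8 and Hoxb9 were lower and Hoxb2 and Hoxc13 higher. Hoxd9 had 7.23, 6.49 and 6.47 FPKM in exp and 0.814, 0.737 and 0.724 in ctl. All 13 higher and all 14 lower Hox genes had the same sign in both other day 16 pairs, and 1 higher and 1 lower gene, Hoxd8 and Hoxc8, had late pairs outside their early ones. Of 33 tested patterning factors outside Hox, 15 were higher and 9 lower. Alx1, Tbx3 and Meis1 were among the lower, and the cardiac and coelomic factors Hand2 (2.61) and Gata4 (1.86) among the higher.

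**Figure D1:**
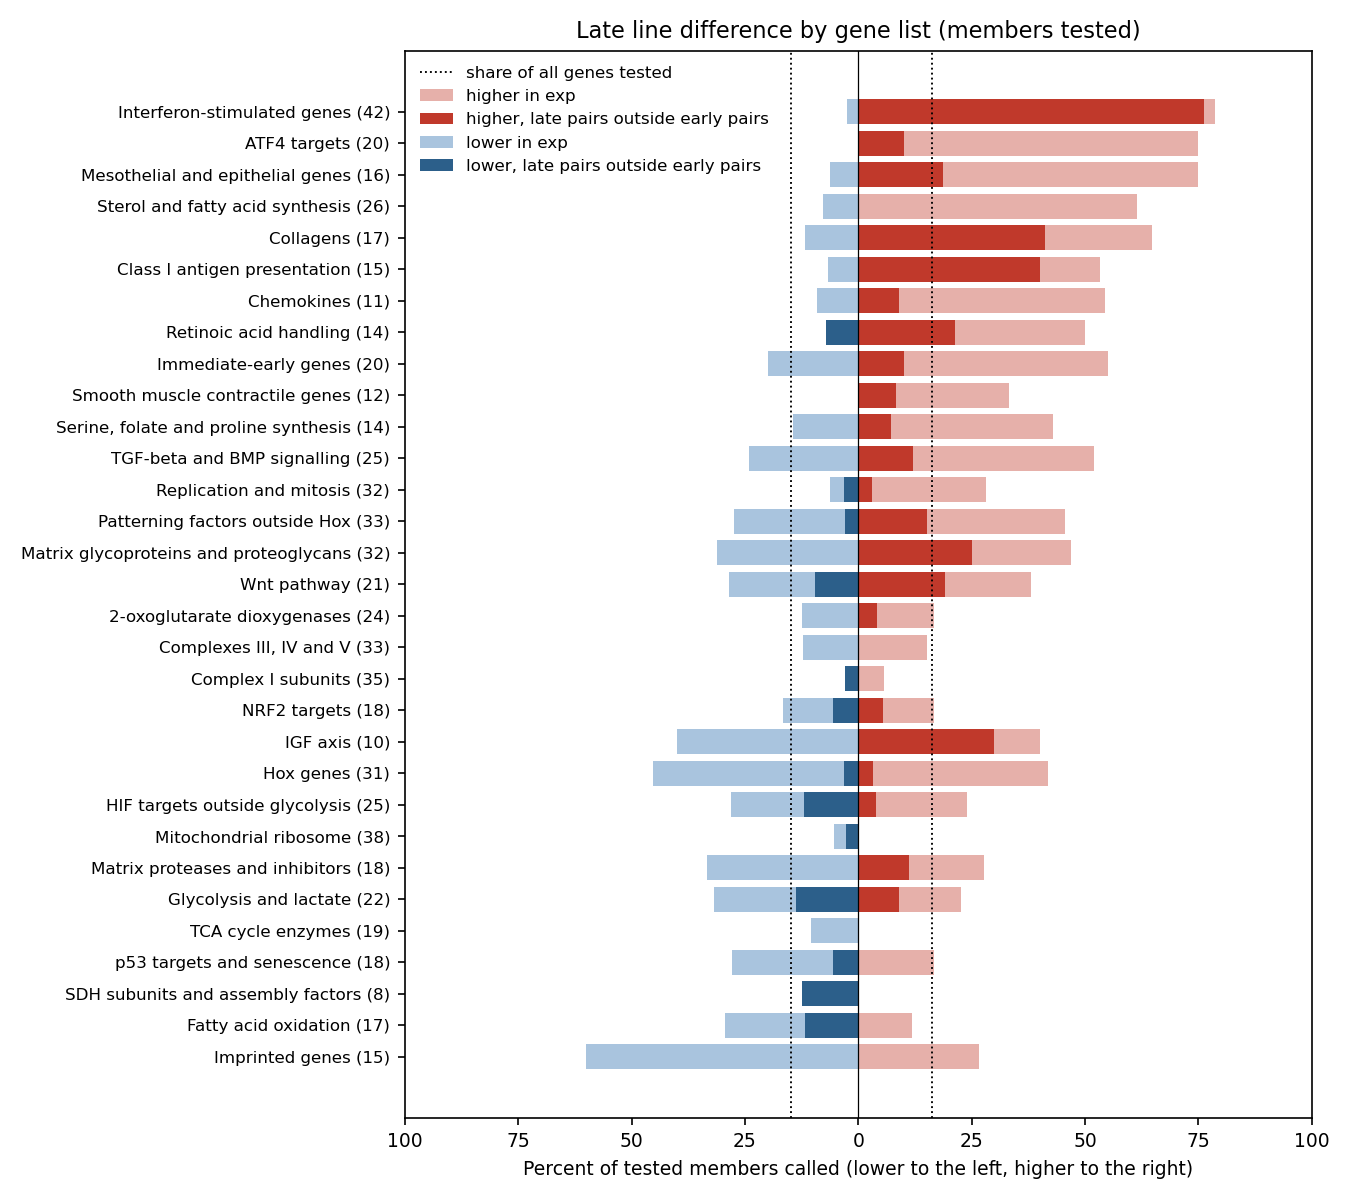
Percent of the tested members of 31 gene lists called higher (right, red) or lower (left, blue) in exp at days 12 to 20, by limma at an adjusted p under 0.05. Dark bars are called members whose 3 late pair differences all lie beyond their 3 early ones, and dotted lines are the shares of all genes tested (16.3% and 14.8%). In the interferon list the dark bar covers 32 of 33 higher members, and in the mesothelial and epithelial list 3 of 12.

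Whether a late difference exceeded the early one was asked in a test and by a count. The limma test of the late minus early line difference, on 12 libraries, called 0 of 12093 genes (0%), with 1225 at an unadjusted p under 0.05 and a smallest adjusted p of 0.124. Limma voom on reads recovered from the FPKM values called 64 genes in that test, and the fit without the day term called 11. The count asked for genes in which all 3 late pair differences lay further in the direction of the late mean than all 3 early ones. Higher in exp in this way were 767 of 12093 genes (6.34%), and lower were 669 (5.53%). Among the 3752 called genes the count was 814, or 21.7%, of which 526 were higher and 288 lower. With a day left out, fewer pairs have to meet the rule. The count was then 1106 without the day 0 pair, 1108 without day 5 and 1253 without day 9. It was 1626 without the day 12 pair, 798 without day 16 and 403 without day 20. With day 16 replicates 2 and 3 in place of replicate 1 it was 149.

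Among the 31 lists, the share of members outside their early pairs toward exp was highest for interferon-stimulated genes, which cells switch on when interferon or foreign nucleic acid is sensed. Of 42 tested, 33 were higher in exp late (78.6%, against 16.3% of all genes), and 32 of these 33 had late pairs outside their early pairs, as had 526 of the 1967 genes called higher. Called or not, 34 of the 42 lay outside toward exp, against 6.34% of all genes. The list's median difference was -0.16, -0.22 and 0.41 at days 0, 5 and 9 and 0.74, 0.98 and 0.93 at days 12, 16 and 20. Unlike the mesothelial genes, the list had a difference as large in the separate day 16 pairs, 1.14 and 1.10. All 33 higher members were also higher in both of those pairs. Without the day 20 pair 27 members were called higher, without the day 16 pair 30, and with replicates 2 and 3 in place of replicate 1, 27. In the late minus early test 36 of the 42 had an unadjusted p under 0.05 and none passed after adjustment (smallest adjusted p = 0.168), while voom called 12 of them and the fit without the day 12 pair 10.

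Isg15, a ubiquitin-like protein that is attached to other proteins (mm9 chr4:155573533-155574927, minus strand), had the largest late difference of the list. It had 21.1, 28.8 and 51.8 FPKM in exp at days 0, 5 and 9, then 84.9, 81.2 and 82.3 at days 12, 16 and 20. In ctl it had 19.7, 26.1 and 19.4 early and 20.6, 13.9 and 16.6 late. The lines were close at days 0 and 5, apart at day 9 and furthest apart late, with a late difference of 2.23 ± 0.10 (limma adjusted p = 0.000538). Replicates 2 and 3 of day 16 had 73.1 and 80.6 FPKM in exp and 12.0 and 11.3 in ctl.

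Bst2, tetherin, which holds budding viruses at the cell surface, had 141, 120 and 133 FPKM in exp late and 41.9, 31.8 and 31.8 in ctl, a difference of 1.88 ± 0.08. Lgals3bp, a secreted glycoprotein, had 71.0, 70.3 and 73.3 against 22.1, 19 and 19.3 FPKM (1.78 ± 0.07). Rtp4, a receptor transport protein induced by interferon, had 16.4, 14.1 and 14.8 against 5.52, 4.33 and 4.64 FPKM (1.47 ± 0.06). Exp and ctl did not overlap in any of them late. At day 9 exp was already higher, by 1.03 for Bst2, 1.19 for Lgals3bp and 0.55 for Rtp4, while at days 0 and 5 the 3 differences lay between -0.39 and 0.05. Usp18, the protease that removes ISG15, differed by 1.96, and Oasl2, an oligoadenylate synthetase-like protein, by 1.81. Of the transcription factors, Irf7 differed by 1.33 and Irf9 by 0.95, both called. Gbp2, a guanylate-binding GTPase, was the 1 member lower in exp late, at 2.91, 3.58 and 3.29 FPKM against 8.09, 6.59 and 6.58. Its difference was -0.92 late and -2.04 early, so the gap was smaller late. The leukocyte markers Ptprc, Adgre1 and Tyrobp were at 0 in the same libraries, and the summed macrophage list stood at 2.67 to 3.25 FPKM in exp and 4.77 to 5.38 in ctl.

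Class I antigen presentation genes, which load and display peptides on the cell surface, also differed. Of 15 tested, 8 were higher and 1, the nonclassical class I gene H2-T23, lower, against 16.3% and 14.8% of all genes. Of the 8, 6 had late pairs outside early pairs, as had 526 of the 1967 genes called higher. H2-K1, a classical class I heavy chain, had 81.2, 91.3 and 110 FPKM in exp late and 46.6, 40.6 and 39.1 in ctl, and 42.0, 44.5 and 60.1 against 43.5, 48.2 and 45.7 early. The peptide transporter Tap1 differed by 1.12 late and 0.01 early, and H2-D1 by 0.90 and -0.08. Reads of class I genes can be shared between near-identical copies, so single members are uncertain. Without the day 20 pair 3 of the 15 were called higher.

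The promoters of 3 interferon-list genes are shown because these genes moved apart together. Candidates were the members called with late pairs outside early pairs. Members without a promoter sequence and members on a passed-over chromosome were left out of this choice. The 3 shown had the largest late minus early differences among the remaining members. The sequences are the 250 bases before the start site in RefSeq GRCm38.p6, 5′ to 3′ on the gene's strand. Capitals mark matches to GAAA, any 2 bases and GAAA again, the core of the interferon-stimulated response element, searched on both strands over 300 bases that run 50 past the start. Overlapping matches are merged.
Oasl2 (chr5:114896684-114896933, plus strand): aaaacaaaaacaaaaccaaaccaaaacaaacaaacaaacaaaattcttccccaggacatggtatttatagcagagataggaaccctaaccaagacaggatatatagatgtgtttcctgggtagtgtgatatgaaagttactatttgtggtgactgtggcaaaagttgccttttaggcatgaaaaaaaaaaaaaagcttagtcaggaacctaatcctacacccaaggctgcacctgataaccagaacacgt
Isg15 (chr4:156200819-156201068, minus strand): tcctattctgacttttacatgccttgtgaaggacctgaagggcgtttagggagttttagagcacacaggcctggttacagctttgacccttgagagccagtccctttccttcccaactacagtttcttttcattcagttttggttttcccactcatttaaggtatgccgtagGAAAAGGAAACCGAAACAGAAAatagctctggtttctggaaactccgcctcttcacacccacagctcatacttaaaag
Bst2 (chr8:71537473-71537722, minus strand): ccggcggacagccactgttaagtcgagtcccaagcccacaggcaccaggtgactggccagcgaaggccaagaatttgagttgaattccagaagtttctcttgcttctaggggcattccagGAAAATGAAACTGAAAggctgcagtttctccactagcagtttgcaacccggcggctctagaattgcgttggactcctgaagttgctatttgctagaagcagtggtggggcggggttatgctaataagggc
The Isg15 window holds 3 overlapping matches, the first starting 78 bases before the start site, and the Bst2 window 2, the first 130 bases before it. The Oasl2 window holds none, which says only that these letters are not in this window. With no chromosome passed over, 25 interferon-list genes called higher with late pairs outside early pairs have a window, and 14 (56.0%) hold a match. Of the 8 other tested members with a window 3 do, and of all 9224 tested genes with a window 333 (3.61%) do. The list is made of genes known to respond to interferon, so this share describes the list.

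**Figure D2:**
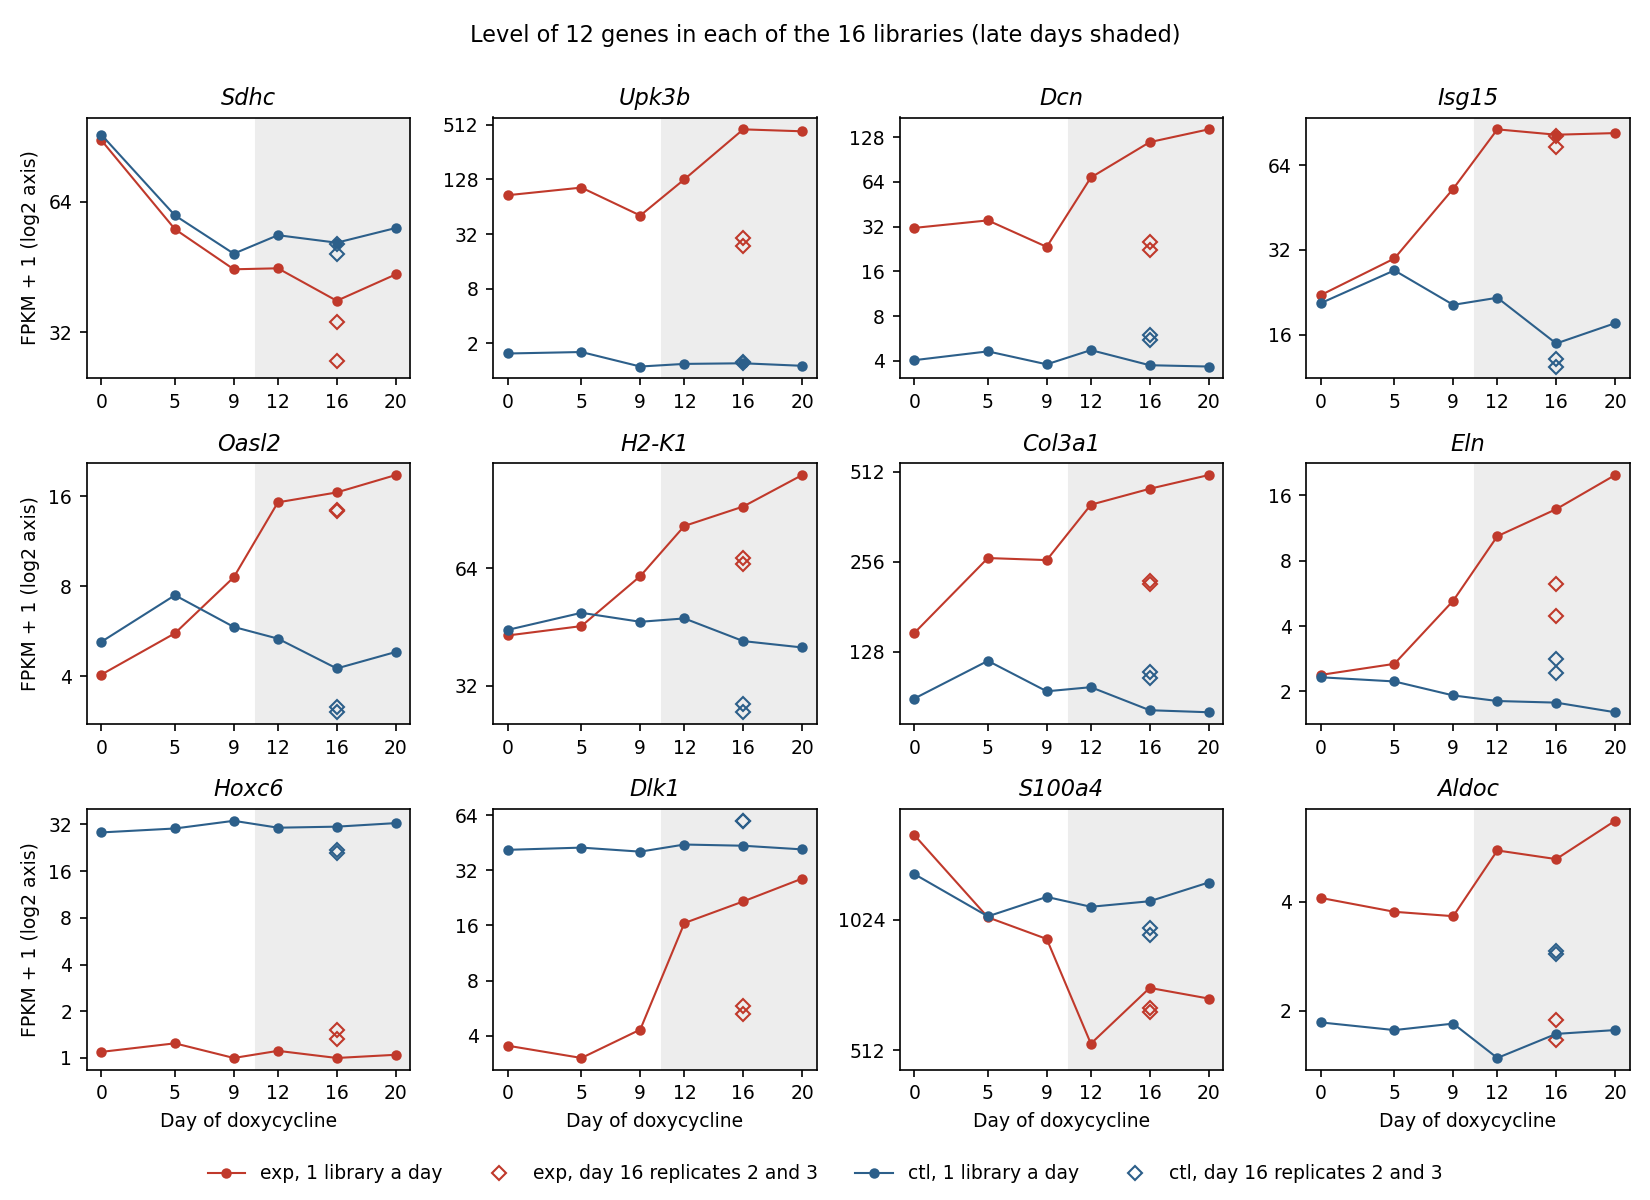
FPKM + 1 (log2 axis) of 12 genes in each of the 16 libraries against day of doxycycline, exp in red and ctl in blue, with day 16 replicates 2 and 3 as open diamonds and the late days shaded. Exp lies above ctl from day 9 on for Isg15 and Oasl2, and their diamonds lie on the same side, while for Upk3b, Dcn and Dlk1 the exp diamonds lie below all 3 late exp points.

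Matrix genes differed too. With day 16 replicates 2 and 3 in place of replicate 1, fewer of them were called with late pairs outside early pairs. The median late minus early difference was 0.37 in the main fit and 0.36 in that setting for collagens. For matrix glycoproteins and proteoglycans it was 0.45 and 0.41. Of 17 tested collagens, 11 were higher and 2 lower (Col18a1 and Col5a2), against 16.3% and 14.8% of all genes. Of the 11, 7 had late pairs outside early pairs, as had 526 of the 1967 genes called higher. Col3a1, a fibrillar collagen, had 397, 449 and 499 FPKM in exp late and 96.5, 80.6 and 79.3 in ctl, a difference of 2.38 ± 0.13 beside 1.11 early. Col1a2, the second chain of collagen I, had 721, 684 and 650 against 96.3, 91.6 and 88.5 FPKM, a difference of 2.88 late and 2.51 early. Its partner chain Col1a1 differed by 0.19 and was not called. The basement membrane chains Col4a1 (0.77) and Col4a2 (1.02) and the collagen VI chains Col6a1 (0.96), Col6a2 (1.37) and Col6a3 (0.80) were all higher. In the other day 16 pairs the collagen list had median differences of 0.32 and 0.33, and with those libraries in place of replicate 1, 6 members were called higher and 0 of them had late pairs outside early pairs, against 7 of 11. Without the day 16 pair 10 were called higher and 8 of them lay outside, with fewer late pairs to meet the rule.

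Of 32 tested matrix glycoproteins and proteoglycans, 15 were higher and 10 lower, against 16.3% and 14.8% of all genes. Late pairs lay outside early pairs in 8 of the 15 but none of the 10. Over all called genes they did so in 526 of 1967 higher and 288 of 1785 lower genes. With replicates 2 and 3 in place of replicate 1 the count of higher members outside was 2, without the day 20 pair 3 and without the day 16 pair 9. Eln, elastin (mm9 chr5:135179651-135223111), had the largest late minus early difference among called genes higher in exp, 2.45 ± 0.42 (limma adjusted p = 0.168). Its exp level was 1.38, 1.68 and 4.23 FPKM early and 9.37, 12.8 and 18.8 late, against 0.602 to 1.32 in ctl over these days, and 5.27 and 3.45 in the other day 16 replicates. Dcn, decorin, which binds collagen fibrils, had 67.5, 118 and 143 FPKM in exp late against 3.72, 2.74 and 2.66. Lox and Loxl2, which crosslink collagen and elastin, were lower in exp, by 0.59 and 0.65 log2 units.

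Other genes with late pairs outside early pairs had large late minus early differences without passing that test. Higher in exp were Trf, the iron carrier transferrin (2.08, from 3.79, 3.72 and 2.64 FPKM early to 8.02, 20.1 and 25.1 late), and Lratd1 (2.07), beside Upk3b and Lrrn4. In voom Eln, Trf and Upk3b passed the late minus early test, with adjusted p of 0.0447, 0.0421 and 0.0447. With day 16 replicates 2 and 3 in place of replicate 1, the late calls of Eln, Trf and Lratd1 were lost (limma adjusted p between 0.0667 and 0.102). Lower in exp were S100a4, a calcium-binding protein used as a fibroblast marker, Dlk2, Ly6a, Fam162a, Taf10 and the histone gene H2ac11, which has near-identical copies. The late calls of Ly6a, Taf10, H2ac11 and Fam162a were also lost with those replicates in place of replicate 1. Those of S100a4 and Dlk2 were kept. Ly6a was higher in exp in both other day 16 pairs (0.40 and 0.35), and Taf10 differed by 0.64 and -0.06 there. S100a4 had 1606, 1037 and 924 FPKM in exp at days 0, 5 and 9 and 529, 712 and 673 late, against 1042 to 1305 in ctl on all 6 days. Exp lay above ctl at day 0, level with it at day 5, and below it at day 9 (924 against 1156 FPKM) and on all 3 late days. The S100a4 difference was -0.01 early, -0.87 late and -0.60 in the other day 16 pairs.

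**Figure D3:**
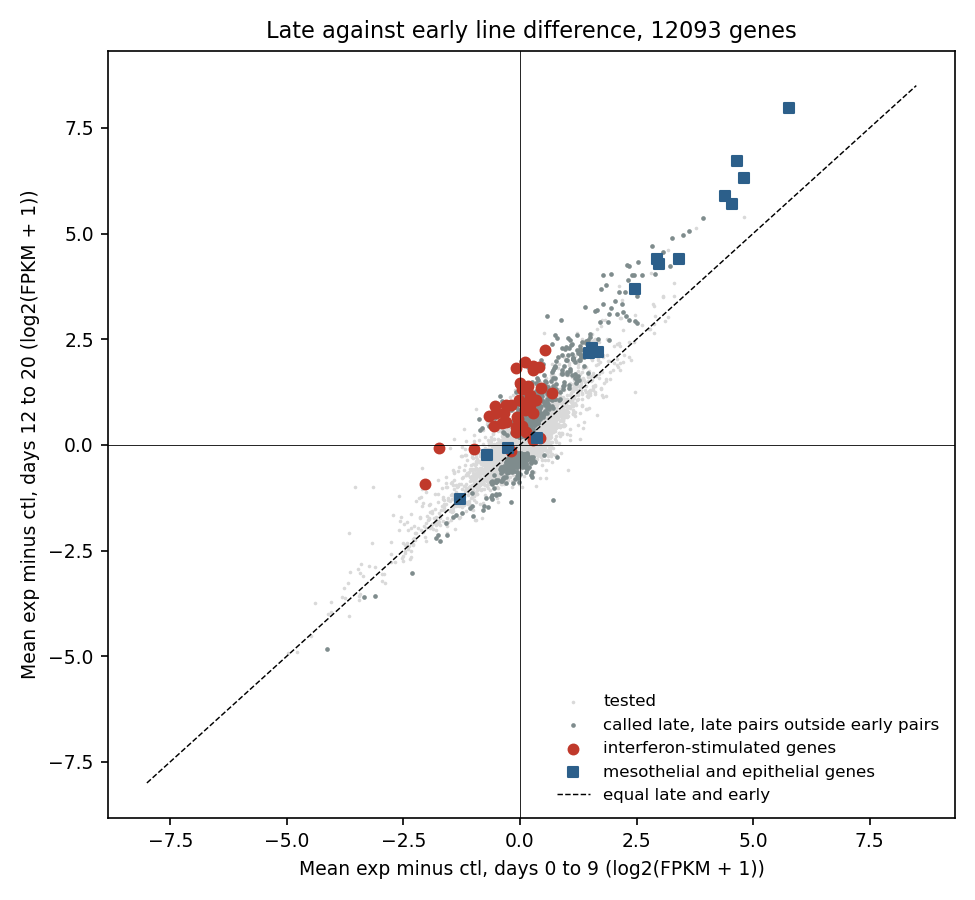
Mean exp minus ctl difference over the 3 late pairs against the 3 early pairs, in log2(FPKM + 1), for 12093 genes, with interferon-stimulated genes as red circles and mesothelial and epithelial genes as blue squares. Most interferon genes lie near 0 early and above 0 late, and the highest mesothelial genes lie above the line of equality with early differences of 4.40 to 5.78 for the 5 highest.

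In some genes the lines came closer late. There were 151 called genes whose 3 early differences were all larger in the same direction. Dlk1, an imprinted gene for a membrane protein that inhibits adipocyte differentiation, had 2.53, 2.03 and 3.33 FPKM in exp early and 15.5, 20.6 and 27.8 late, against 39.4 to 43.2 in ctl on all 6 days. Its difference went from -3.53 early to -0.99 late, a change of 2.54 ± 0.24 with the smallest adjusted p of the late minus early test (0.124; voom adjusted p = 0.0117). In day 16 replicates 2 and 3 exp had 4.27 and 4.82 FPKM and ctl 58.0 and 58.5, a difference of -3.42. Without the day 16 pair the late call of Dlk1 was lost (limma adjusted p = 0.066), and with replicates 2 and 3 in place of replicate 1 too (adjusted p = 0.135). Svep1 (-1.11 late, -2.02 early) and Ccn3 (-1.67 late, -2.73 early), both for secreted matrix proteins, were further such genes on the lower side. On the higher side were Stmn2 (1.25 late, 2.46 early), Syt8, Rbpms2 and Pfdn4.

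Imprinted genes were mostly lower in exp, 9 of 15 with 4 higher, against 14.8% and 16.3% of all genes. None of these 13 had late pairs outside early pairs, beside 21.7% of all called genes. H19, a noncoding RNA expressed from the maternal copy, had 99.8, 118 and 91.0 FPKM in exp late and 816, 705 and 663 in ctl. Igf2, the growth factor gene beside it, had 17.1, 8.68 and 12.5 against 80.6, 60.0 and 58.3. Peg3, a paternally expressed zinc finger gene, went the other way with 7.74, 15.9 and 13.5 FPKM in exp and at most 0.130 in ctl. The list's median was -1.30 early and -0.64 late.

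Amino acid response genes driven by ATF4, which cells switch on when amino acids run short or mitochondria are stressed, had a median above 0 in every pair. Of 20 tested, 15 were higher late and none lower, against 16.3% and 14.8% of all genes. Of the 15, 2 had late pairs outside early pairs, as had 526 of the 1967 genes called higher. The list's median was 0.45 early, 0.55 late and 0.45 in the other day 16 pairs. Trib3, a pseudokinase target, had 44.7, 46.0 and 38.8 FPKM in exp late and 9.25, 9.96 and 9.54 in ctl. Asns, asparagine synthetase, differed by 1.04 and Atf4 itself by 0.51. Of 26 tested genes of sterol and fatty acid synthesis, 16 were higher and 2, Fasn and Acly, lower, and none had late pairs outside early pairs. With day 16 replicates 2 and 3 in place of replicate 1, 5 sterol and fatty acid genes were called higher, and without the day 20 pair 8.

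Signalling genes differed in both directions. Over all genes 16.3% were called higher and 14.8% lower, and no test compared the lists below with these shares. Of 25 tested genes of TGF-beta and BMP signalling, which control matrix production and cell identity, 13 were higher and 6 lower. Id1, a BMP target, had 259, 238 and 234 FPKM in exp late and 27.0, 32.0 and 32.8 in ctl. Grem1, a BMP antagonist, differed by -3.54 and the receptor Tgfbr2 by -1.98. Of 21 Wnt genes 8 were higher and 6 lower, and of 14 genes of retinoic acid handling 7 were higher and 1 lower, the binding protein Crabp1 (-3.59). Of 10 IGF genes 4 were higher and 4 lower. Igfbp3, a binding protein of the growth factors, had 2.18 to 2.41 FPKM in exp early and 7.53, 12.7 and 20.0 late, against 2.05 to 2.71 in ctl on these 6 days. Of 11 chemokines 6 were higher and 1 lower. Of 20 immediate-early genes 11 were higher and 4 lower, and Fos had 87.4, 31.0 and 22.4 FPKM in exp late against 13.6, 7.73 and 5.95 in ctl. Of 32 genes of replication and mitosis 9 were higher (28.1%) and 2 lower (6.25%) late. Of the 9, 6 had the opposite sign in both other day 16 pairs, as had 244 of all 1967 genes called higher.

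Genes of the respiratory chain and the citric acid cycle had the following calls late. Of 35 tested complex I subunits 2 were higher and 1 lower, of 33 in complexes III, IV and V 5 were higher and 4 lower, of 38 mitochondrial ribosomal proteins 2 were lower, and of 19 citric acid cycle enzymes 2 were lower, Mdh2 (-0.38) and Ogdh (-0.29). Over all genes 31% were called in either direction, which the 9 of 33 in complexes III, IV and V come near. No test compared the lists with it. Of 22 glycolysis and lactate genes 5 were higher and 7 lower, with the list's median at 0.22 early and -0.12 late. Ldha, which makes lactate, had 206, 232 and 207 FPKM in exp and 258, 262 and 262 in ctl late, a difference of -0.28 beside 0.29 early. Aldoa and Pfkl had the same pattern, at -0.29 and -0.41 late and 0.24 and 0.25 early, while Aldoc, the brain-type aldolase, was higher late (1.80) and lower in the other day 16 pairs (-0.71). In the late minus early test 12 glycolysis genes had an unadjusted p under 0.05 and none passed after adjustment. With replicates 2 and 3 in place of replicate 1, 1 glycolysis gene was called higher and 0 lower in limma. Of 25 targets of hypoxia-inducible factor outside glycolysis 6 were higher and 7 lower. Car9, a carbonic anhydrase, was higher (22, 15.9 and 24.0 against 3.85, 3.64 and 3.97 FPKM), and Car12, another, lower (2.14, 1.99 and 1.64 against 22, 23.3 and 23.3 FPKM). Of 24 dioxygenases that use 2-oxoglutarate, 4 were higher and 3 lower.

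**Figure D4:**
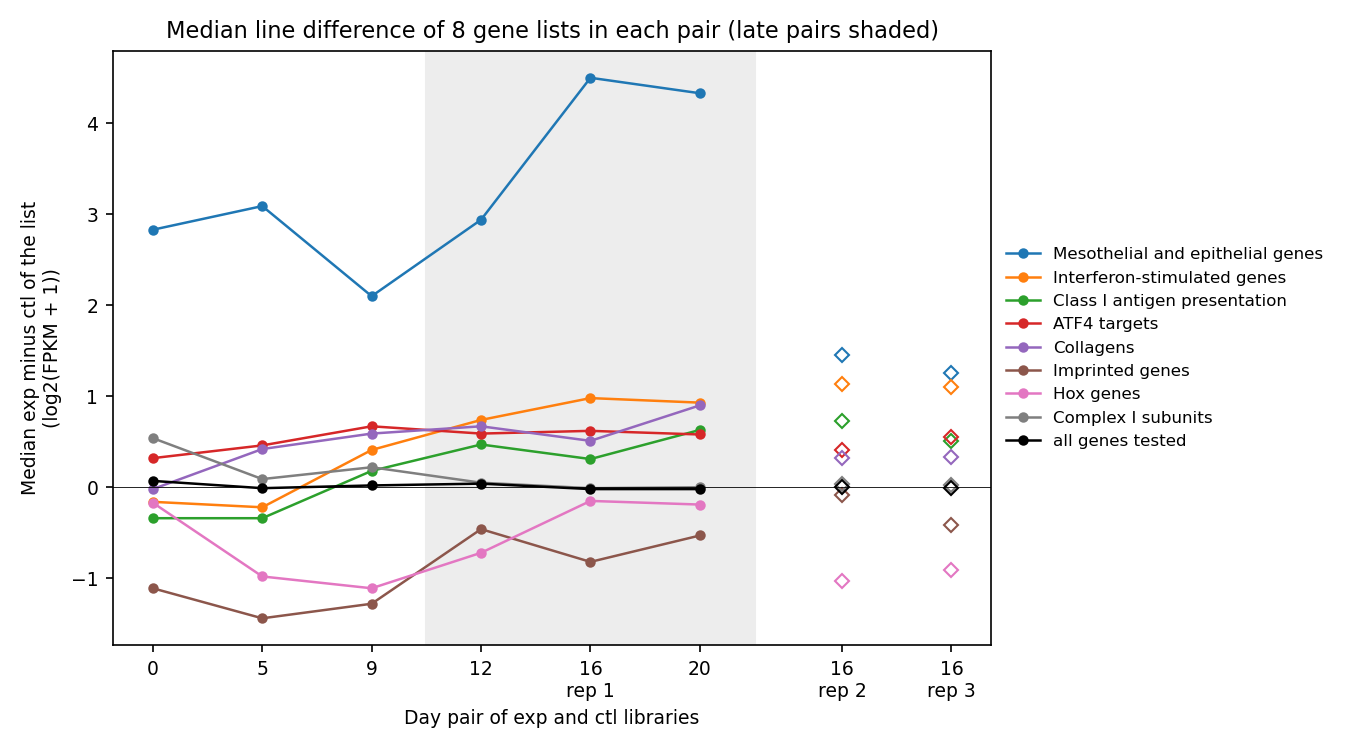
Median exp minus ctl difference, in log2(FPKM + 1), of 8 gene lists and of all genes in each day pair, with late pairs shaded and the separate day 16 pairs as open diamonds. The interferon list rises from -0.16 at day 0 to 0.93 at day 20 with diamonds at 1.14 and 1.10, while the mesothelial list stands at 4.33 at day 20 with diamonds at 1.45 and 1.26.

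Which line moved was asked within each line. In exp, 323 genes were higher late than early (2.67%) and 98 lower (0.81%) in limma. In ctl 0 genes were called (0%), 257 had an unadjusted p under 0.05, and voom also called 0. Both contrasts came from the same fit of 12 libraries, with the variance of each gene pooled over the lines. The ctl contrast is thus set against a spread that includes exp, and its 0 calls cannot decide whether ctl stayed level. Of the 42 interferon genes 28 were called higher late in exp, with a median change of 0.82, and all 42 had a negative change in ctl, with a median of -0.21, as had 7162 of all 12093 genes. The exp counts rest on single libraries: they were 92 higher and 32 lower without day 0, 476 and 693 without day 5, 578 and 216 without day 12, 8 and 0 without day 16, and 5 and 0 without day 20. With day 16 replicates 2 and 3 in place of replicate 1 they were 2 and 0. Late and early days within 1 line also differ in days of culture, which was not tested.

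The separate day 16 pairs share no library with the late comparison. Of the 3752 called genes, 2730 (72.8%) had the late sign in both pairs, against 6712 of all 12093 (55.5%), and 504 (13.4%) had the opposite sign in both. The differences were smaller there: the median size over the called genes was 0.227, beside 0.467 in the late pairs. The chemokine Cxcl14 (39.9, 27.4 and 33.3 FPKM in exp against 1.07, 0.675 and 0.758 in ctl) had 7.53 and 6.29 FPKM in exp against 5.47 and 5.25 in ctl there.

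**Figure D5:**
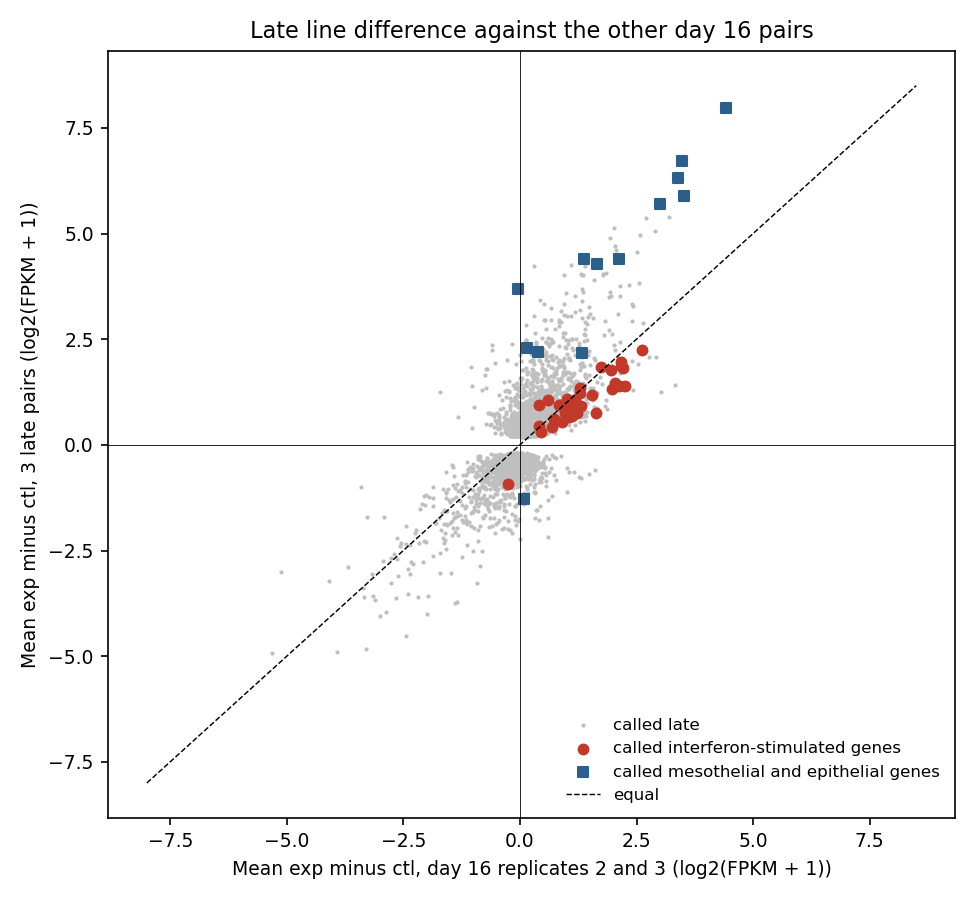
Mean exp minus ctl difference over the 3 late pairs against the mean over day 16 replicates 2 and 3, in log2(FPKM + 1), for the 3752 called genes. Called interferon genes (red) lie on both sides of the line of equality, and the 12 higher mesothelial and epithelial genes (blue) lie above it, with Upk3b at 7.96 late and 4.42 in the other pairs.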

How the data were processed

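Poly(A) RNA of 16 libraries was sequenced (TruSeq v2), and the authors deposited FPKM per gene for each, 1 file a library. Per the submitters' processing notes, reads were aligned with Bowtie2 2.2.3 to mm9. How reads were counted, on which annotation and with what strand setting is not given in the sources used here, so overlapping, antisense and near-identical genes are uncertain. Symbols came from RefSeq (24416 of 24485 IDs matched) and mm9 coordinates from GENCODE by symbol. Genes on X (1067) and Y (47) and 70 IDs without a chromosome were left out.

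The deposited FPKM values were tested as log2(FPKM + 1) in R 4.3.3 with limma 3.58.1 (statmod 1.5.0), with trend and robust variances, two-sided, with Benjamini-Hochberg adjustment over 12093 genes and a threshold of 0.05. The late fit had day and line as terms (6 libraries), and the late minus early fit added a term for line by period, late or early (12 libraries, 18121520 to 34903984 reads in genes). Pairs are libraries of the same labelled day, which the labels do not tie to a shared culture. Whole reads were recovered within 0.02 reads for all 18966 genes with reads in at least 2 libraries, and used in voom. Tested on simulated data with 12134 genes, the late fit recovered 68.7% of 1.5-fold and 100% of 2-fold changes. The late minus early fit recovered 20.9% and 89.6%. In these fits 36 and 9 unchanged genes were also called. Simulated libraries were drawn from 1 shared profile with 1 fixed dispersion, without day or line differences other than the planted changes. The recovered shares therefore do not give the power in the real libraries.

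Named genes were the SDH subunits, the 12 largest called late differences in each direction with at least 5 FPKM in the higher line, 6 per direction with the largest late minus early difference among called genes outside their early pairs (none passed that test), 4 per direction that shrank, and up to 3 per list by smallest p. Col3a1, H2-K1, Irf7, Usp18, Wt1, Igfbp3, Peg3, Ldha and other genes named outside this rule, and the 3 promoters, were chosen after their values were seen. The comparison, members and lists were chosen with earlier results of these data known. Some genes that meet this rule are not reported here. Alternatives covered the pseudocount, filter, scaling, variance model, day term, recovered reads, the other day 16 libraries and each day left out.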

Additional observations from a re-analysis of the deposited data

How the results depend on the processing

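The late count of 3752 stayed between 3016 and 4360 under the pseudocounts, filters, scalings, variance models, recovered reads and the fit without the day term, and its higher share went from 52.4% to 46.1% under quantile normalization. With no replicate block (no day term, so the day pairs were ignored) 4062 genes were called late and 11 in the late minus early test; voom gave 64 there. With day 16 replicates 2 and 3 in place of replicate 1, the late count was 786 (468 higher, 318 lower, 772 shared with the 3752), the count outside early pairs 149 (115 higher, 34 lower), the exp late against early counts 2 higher and 0 lower, and Sdhc -0.437. With a filter of 5 FPKM the exp counts were 146 and 45. With 1 day left out at a time, the late count ran from 1269 to 4918 (higher 761 to 2355, lower 508 to 2563), the late minus early count from 0 to 211, the count outside early pairs from 403 to 1626 (higher 316 to 919, lower 87 to 707), the exp counts from 5 to 578 higher and 0 to 693 lower, and Sdhc from -0.401 to -0.305. Cdh11 reversed, from 0.41 to -0.109 (limma adjusted p = 0.848), with replicates 2 and 3 in place of replicate 1. In that setting 70 named genes lost their late call, without the day 16 pair 18 and without the day 20 pair 27. The cause was not tested. Low genes rest on few reads, and changes under 2-fold were recovered in part in the simulation.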

Other observations

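In 504 called genes both of the other day 16 pairs had the opposite sign to the late difference. Among the 56 of these with a late difference of at least 1 log2 unit, 4 also had a mean of at least 1 in the other pairs, and they were chosen after their values were seen. Stmn2, a tubulin-binding protein of neurons, differed by 1.25 late and -1.71 in the other pairs. Nkain4, which interacts with the sodium pump, had 3.83, 7.97 and 8.11 FPKM in exp late and 0.723 and 0.780 in replicates 2 and 3, for differences of 1.85 and -1.05. Ptgs1, the constitutive cyclooxygenase, had 19.1, 52.9 and 49.3 FPKM in exp late and 9.54 and 11.2 in those replicates, for differences of 1.39 and -1.02. Pparg, the master regulator of fat cells, had 1.05, 1.14 and 1.23 FPKM in exp late and 4.54 and 4.27 in those replicates, for differences of -1.13 and 1.02.

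Cdh11, a mesenchymal cadherin, was lower in exp than in ctl at days 0, 5 and 9 (39.7, 49.2 and 35.7 against 70.7, 82.5 and 66.1 FPKM) and higher at days 12, 16 and 20 (80.8, 93.1 and 95.4 against 72.4, 64.2 and 65.3). Replicates 2 and 3 of day 16 had 32.0 and 29.2 FPKM in exp and 63.8 and 62.7 in ctl.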
